A study of Bos taurus with 12 samples.

Results

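Gene expression in summer was set against autumn in the uterine horn opposite the corpus luteum, the non-CL-side horn. The comparison holds the samples whose titles name non-CL-side endometrium in summer (3 arrays) or in autumn (3 arrays), which are 6 of the 12 samples of the series. All samples were endometrium biopsied from Japanese-Black cows on cycle day 15, with summer collected in early September and autumn in mid-November over 2 consecutive years. The labels give no treatment, genotype or age, and they do not tie a sample to an animal or to a year. The other 6 samples are from the CL-side horn in the same seasons, again 3 and 3. The labels do not say that replicates are separate animals, so p-values measure only the spread between these samples, which may be technical.

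The corpus luteum is the ovarian body that forms after ovulation and secretes progesterone, and it sits on 1 ovary, so that each cycle has a CL-side and a non-CL-side horn. On these days of the cycle progesterone from the corpus luteum governs the endometrium, whose glands secrete proteins and nutrients for an embryo. Around the same time the ruminant uterus decides between luteolysis, driven by oxytocin receptors and prostaglandin F2 alpha, and the recognition of pregnancy, in which interferon tau from the embryo induces a set of interferon-stimulated genes. Heat exposure in summer is known to lower fertility in cows, and heat shock proteins are the classic cellular response to high temperature.

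Each array was hybridised with Cy3-labelled RNA of 1 sample, and a probe is an oligonucleotide fixed to the slide.

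Values below are log2 signals relative to the 75th percentile of the array, so that 0 is a bright probe, and changes are summer minus autumn. The lowest value possible is the floor of −7.28, and differences at or near it have no reliable size. On the 6 arrays the processed signal at the 75th percentile lay between 3516 and 4361, 81.2% to 84.1% of probes were well above background, and at most 2 spots were saturated. With 3 arrays a season, precision is limited by their number. Defining markers of endometrium were bright, with the epithelial genes EPCAM and ST14 at means of 4.07 and 4.15 and the stromal genes DCN and COL3A1 at 5.89 and 5.46. All 18 stromal and 23 of 26 epithelial markers on the array were well above background on all 6 arrays. The haemoglobin genes HBA and HBB and the ovarian aromatase gene CYP19A1 were above background on none. Smooth muscle markers were well above background too, 9 of 10 on all 6 arrays. In such bulk tissue, fewer cells of a type and less RNA per cell cannot be told apart.

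Across the whole array the season had small differences in this horn. In limma's fit 0 of 12383 probes (0.0%) passed an adjusted p of 0.05, and the smallest adjusted p was 1. At an unadjusted p under 0.05 there were 139 probes (1.12%), 77 of them higher and 62 lower in summer. The balance turned to 66 and 73 with quantile normalization, 56 and 67 with scaling by the median and 106 and 124 with no filter on dim probes. With no difference between seasons, a level of 0.05 would on average give a larger share than 1.12%. The CL-side horn, fitted in the same model, had 1228 of 12375 probes (9.92%) at that level. The median size of the log2 change was 0.124 over all probes in the non-CL-side horn and 0.234 in the CL-side horn. Changes of more than 1 on the log2 scale were found for 77 probes (51 higher, 26 lower), against 722 in the CL-side horn. Summer array 2 of the CL-side horn stood apart, with 2007 at the 75th percentile, and the median SD of that group was 0.363 against 0.203 to 0.227 in the other 3 groups. Without that dim array the CL-side horn had 678 probes under the unadjusted 0.05 and 307 past 1 on the log2 scale, with a median size of 0.185. In the same refit the non-CL-side horn had 285 probes under the unadjusted 0.05. The test of the difference between the horns passed for 0 probes. It gave an unadjusted p under 0.05 for 233 of 12375 (1.88%), again a smaller share than that level gives with no difference. The median SE of a change was 0.249, larger than the median size of the changes.

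**Figure D1:**
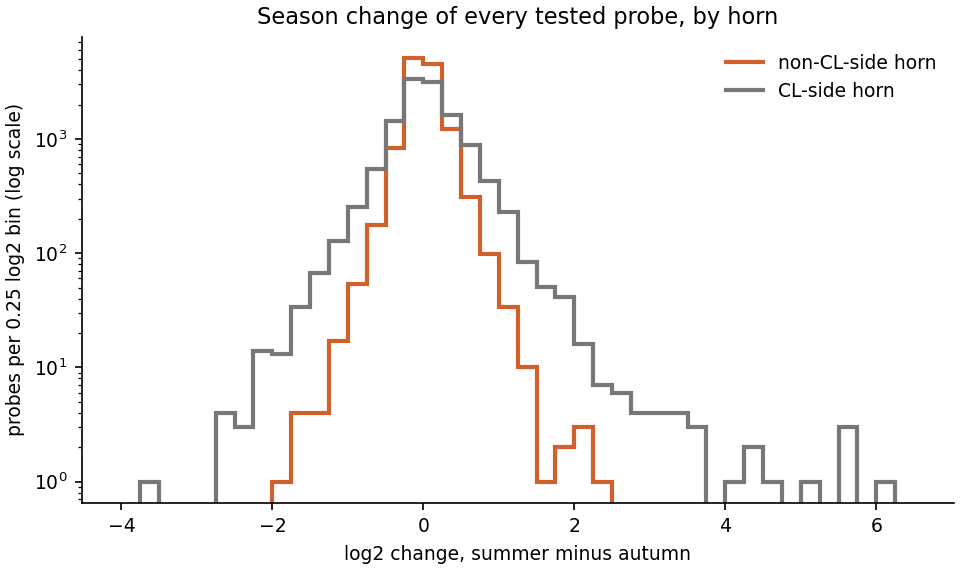
Histogram of the log2 change, summer minus autumn, of every tested probe in the non-CL-side horn (orange) and the CL-side horn (grey), with probes per 0.25 log2 on a log scale. Changes in the non-CL-side horn ran from −1.95 to 2.39 and those in the CL-side horn from −3.58 to 6.15.

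The slides split the seasons unevenly, since the first slide held all 3 summer arrays and autumn replicate 1 of this horn, and the second slide autumn replicates 2 and 3. A fixed slide block left 0 probes past the threshold and 563 under the unadjusted 0.05. The first slide alone, with 1 autumn array, left 1 and 498. The second slide holds no summer array and gives no value of its own. The 1 probe was SOCS5, which encodes a suppressor of cytokine signalling (limma adjusted p = 0.0157). SOCS5 was at −7.28 on all 3 summer arrays and at −3.74, −6.95 and −7.28 on autumn arrays 1 to 3. The probe was well above background on no summer array and autumn array 3 lay at the floor too, so the change of −1.29 (limma adjusted p = 1) has no reliable size. It was −0.16 without autumn replicate 1, −0.64 with normexp background and −0.67 in the authors' value table. The result of the first slide rested on autumn array 1 alone.

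The arrays differed more by their replicate number than by season. Over 12307 probes measured on all 6 arrays, season took 13.5% of the sum of squares on 1 degree of freedom, the replicate number 55.2% on 2 degrees of freedom and the rest 31.3% on 2. Pairs of arrays with the same number correlated at 0.985 to 0.992 (median 0.987, 3 pairs) and pairs of the same season at 0.979 to 0.992 (median 0.982, 6 pairs). Pairs that shared neither number nor season correlated at 0.980 to 0.988 (median 0.984, 6 pairs), so that the ranges overlapped. Both arrays with number 1 lay apart from the other 4 on 3251 probes, by more than 1 on the log2 scale on 62 of them. Those with number 2 lay apart on 1477 probes, by more than 1 on 27. Those with number 3 lay apart on 1833, by more than 1 on 10. All 3 summer arrays lay apart from all 3 autumn arrays on 747 probes, by more than 1 on 1 of them. These splits set 2 arrays against 4 and 3 against 3, so their counts are not on the same footing. A block for the replicate number in limma's fit left 0 probes past the adjusted threshold and 244 under the unadjusted 0.05, or 402 if only the 6 arrays were fitted.

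The genes that parted by number were named after their values were seen. PRSS2, a trypsinogen gene, was at −7.28, 2.65 and 2.51 on summer arrays 1 to 3 and at −7.01, 2.62 and 2.59 on autumn arrays 1 to 3. The arrays numbered 1 were at or near the floor in both seasons, and in the CL-side horn too, at −7.08 in summer and −7.28 in autumn. The class II major histocompatibility gene BOLA-DRB2 was at −6.75, −3.24 and −3.07 in summer and −6.28, −3.58 and −3.31 in autumn. BOLA-DQB1, another gene of that complex, had the opposite order with 0.96, −1.08 and −1.19 in summer and 0.75, −1.13 and −1.10 in autumn. Both genes set the arrays numbered 1 apart from the others, with no such gap between seasons. SFXN1, a mitochondrial serine transporter gene, was at −3.49, −0.36 and −1.65 in summer and −4.06, 0.21 and −1.70 in autumn.

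Muscle genes parted the arrays numbered 2. ACTG2, smooth muscle actin of the gut and uterine wall, was at −0.89, 2.43 and 0.53 in summer and −1.06, 3.16 and −1.16 in autumn. CNN1, the smooth muscle calponin, was at 1.43, 3.78 and 2.34 in summer and 1.45, 3.86 and 0.89 in autumn. Number 2 was the highest in both seasons of this horn for both genes. In the CL-side horn number 2 was highest in summer, at 2.92 for ACTG2 and 5.19 for CNN1, but number 1 in autumn, at 3.76 and 4.68. A list score averages, over the tested genes, how far each lies from its own mean of the 6 arrays, and that of 10 smooth muscle genes was −0.66, 0.87 and 0.048 in summer and −0.44, 0.94 and −0.76 in autumn. The median change of these genes, 0.17, moved between −0.17 and 0.59 as single arrays were left out. Arrays numbered 3 were lowest for THBS4, a matrix protein gene, with −6.18 in summer and −7.28 in autumn against −1.60 to −3.33 on the other 4. They were lowest for MCAM, a cell adhesion gene of vessel walls, with −4.18 and −4.36 against −1.54 to −2.15. No cause of the differences between numbers was tested.

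**Figure D2:**
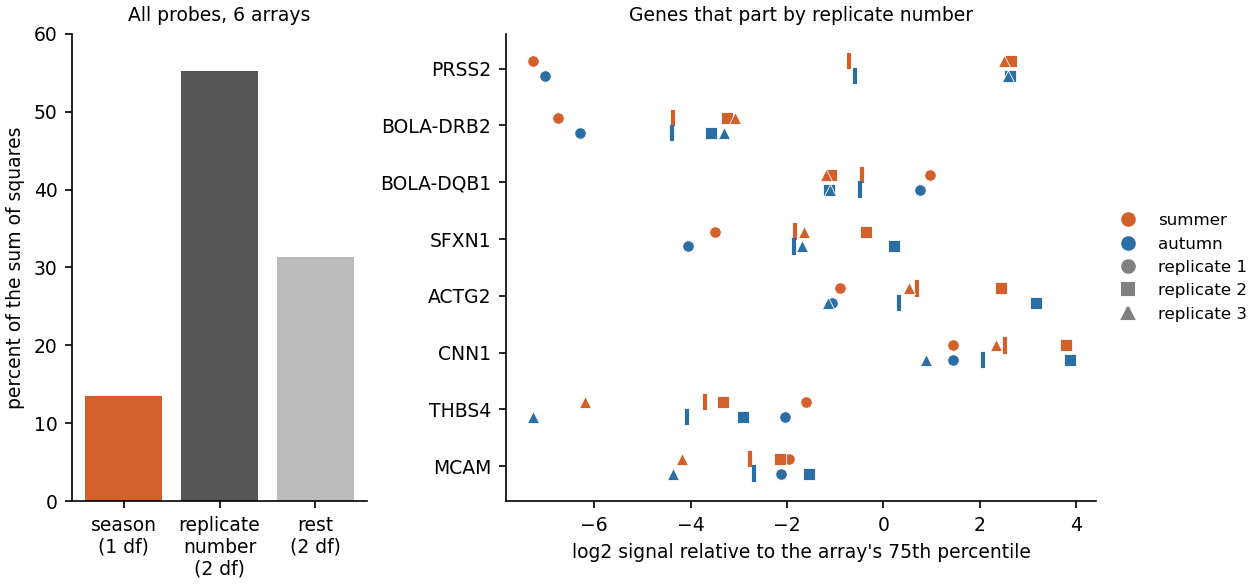
Left, percent of the sum of squares over 12307 probes taken by season, replicate number and the rest on the 6 non-CL-side arrays; right, log2 signal of 8 genes on each array, with summer in orange, autumn in blue, the marker shape giving the replicate number and short bars the means of 3. Season took 13.5% and number 55.2%, and PRSS2 lay at −7.28 and −7.01 on the arrays numbered 1 and above 2.5 on the others.

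Of the 35 lists described, interferon-stimulated genes had the largest share of members whose arrays parted by season. Of 28 tested genes 26 were higher in summer, with a median change of 0.32, against −0.0014 over all 5845 tested genes with a symbol. An unadjusted p under 0.05 was reached by 6 of the 28, all higher, against 65 of 5845 genes (1.11%) on the whole array. On 10 of the 28 every summer array lay above every autumn array, against 149 of 5845 (2.55%), and on 0 of the 28 below, against 203 (3.47%). None of the genes passed limma's adjusted threshold, and the list was chosen with results of these data known. The list score was 0.045, 0.34 and 0.15 in summer and −0.12, −0.37 and −0.046 in autumn, so that the groups did not overlap. Between arrays of the same number the score differed by 0.17, 0.70 and 0.20, the largest for number 2. The median was between 0.22 and 0.33 with any 1 array left out, 0.32 with slide as a block and 0.20 on the first slide.

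Among the effectors, ISG15, a ubiquitin-like modifier that bovine endometrium makes in response to interferon tau, was at 0.70, 1.44 and 1.22 in summer and −0.082, −0.47 and 0.57 in autumn. All summer arrays lay above all autumn arrays, and the change was 1.11 ± 0.32 (SE). OAS1X, an oligoadenylate synthetase gene, was at −3.09, −2.38 and −2.87 in summer and −4.42, −4.18 and −3.25 in autumn, with a change of 1.17 ± 0.39. The related OAS2 overlapped between seasons, at −5.07, −5.41 and −5.76 against −5.63, −6.78 and −6.11, and its change of 0.76 ± 0.30 was 0.20 in the authors' value table. MX1, a dynamin-like antiviral GTPase gene, was at 2.38, 2.33 and 1.77 in summer and 1.74, 1.03 and 1.72 in autumn. Its lowest summer array was 0.043 above autumn array 3 of the same number (change 0.66 ± 0.26). RSAD2, the antiviral protein viperin, was at −3.55, −3.27 and −3.37 in summer and −3.73, −4.24 and −4.09 in autumn (0.63 ± 0.19).

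Sensors, signalling factors and regulators had smaller differences. RIGI, a sensor of viral RNA, was at −0.76, −0.54 and −0.57 in summer and −1.32, −1.12 and −0.93 in autumn, with no overlap and a change of 0.50 ± 0.20. IRF9, the DNA-binding subunit of the interferon-activated factor ISGF3, was at 0.98, 1.30 and 0.99 against 0.91, 0.55 and 0.96 (0.28 ± 0.18). The interferon-inducible immunoproteasome gene PSMB9 had a change of 0.30 ± 0.19, the ISG15 protease gene USP18 0.20 ± 0.17, PARP9 0.22 ± 0.13 and SP110 0.23 ± 0.16, each without overlap. XAF1, a pro-apoptotic interferon target, had 0.36 ± 0.19. The members that were lower in summer were UBA7, the enzyme that activates ISG15 for conjugation (−0.14 ± 0.58), and LGALS3BP, a secreted galectin-binding protein (−0.12 ± 0.24). Their signs turned with single arrays left out, to 0.30 for UBA7 without summer replicate 1 and 0.14 for LGALS3BP without autumn replicate 1.

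**Figure D3:**
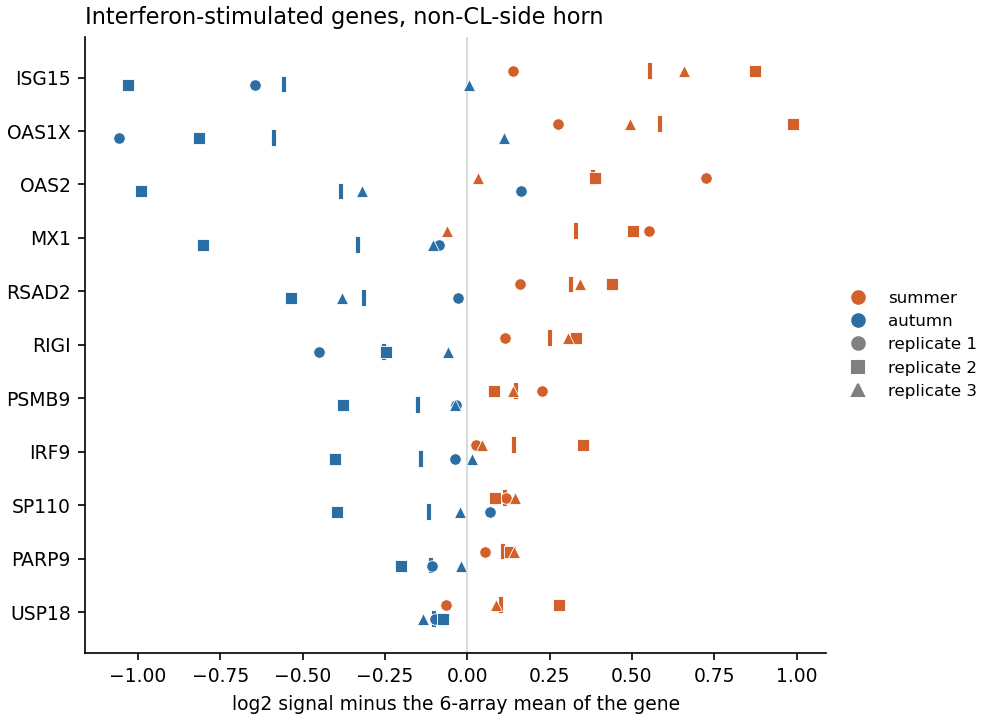
Log2 signal of 11 interferon-stimulated genes on each non-CL-side array minus the gene's mean of the 6 arrays, with summer in orange, autumn in blue, marker shape for the replicate number and bars for the means of 3. Summer lay above autumn on every array for all genes shown but OAS2, and autumn replicate 2 was the lowest array for 8 of the 11.

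In the CL-side horn the 28 genes had a median change of 0.26, with ISG15 at 0.70 ± 0.32, OAS1X at 0.92 ± 0.39 and MX1 at 0.59 ± 0.26. The difference between the horns was 0.41 ± 0.45 for ISG15 and 0.071 ± 0.37 for MX1, each smaller than its SE. MX2, the paralogue of MX1, was at −6.63, −5.09 and −5.78 in summer and −5.91, −6.90 and −6.41 in autumn. It overlapped in the non-CL-side horn (0.58 ± 0.45) and had 1.97 ± 0.45 in the CL-side horn, a difference of −1.40 ± 0.63 (limma adjusted p = 0.999). MX2 lay near the floor, and its change in the non-CL-side horn was 0.10 in the authors' value table, 0.079 on the first slide and 0.20 without summer replicate 2.

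Among immune cells, genes of macrophages and dendritic cells had small differences in 1 direction and those of other classes did not. The 17 tested genes of macrophages and dendritic cells were all higher in summer, beside 49.6% of all genes, with a median change of 0.25. One gene, C1QC, had no overlap between seasons, a share of 5.88% beside 2.55% over all genes. The list score was 0.20, 0.0025 and 0.15 in summer and 0.059, −0.38 and −0.035 in autumn, so that the groups overlapped. The median was 0.072 without autumn replicate 2 and 0.012 on the first slide. C1QC, a chain of complement C1q made by macrophages, was at −0.37, −0.41 and −0.20 in summer and −0.61, −0.87 and −0.72 in autumn (0.41 ± 0.41). Its SDs in this horn were 0.11 in summer and 0.13 in autumn, while the SE also holds the spread of the CL-side arrays. CD83, a maturation marker of dendritic cells, had a change of 0.62 ± 0.33, the monocyte coreceptor gene CD14 0.26 ± 0.23 and the Fc receptor gene FCGR3A 0.35 ± 0.31. The macrophage integrin ITGAM and the costimulator CD80 were above background on none of the 6 arrays. The part of these cells in the interferon-stimulated signal was not tested. In the CL-side horn the list had a median of −0.36, which was 0.088 without the dim summer array 2. Its score there differed between arrays of the same number by 0.44, −1.70 and 0.30, so that only number 2 was lower in summer. The difference between horns for C1QC was 0.97 ± 0.58, and 0.53 ± 0.47 without the dim array.

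Endothelial genes were higher in summer for 19 of 20, with a median of 0.17 that stayed between 0.13 and 0.23 with 1 array left out. Their score was 0.088, 0.17 and 0.026 in summer and −0.11, 0.041 and −0.21 in autumn, with 1 autumn array above 1 summer array. Arrays of the same number differed by 0.19, 0.12 and 0.23, all upward. RAMP2, the adrenomedullin coreceptor of vessels, was at 3.70, 3.57 and 3.48 in summer and 3.45, 3.41 and 3.19 in autumn, without overlap (0.23 ± 0.17). The junction gene ESAM had 0.35 ± 0.21, ROBO4 0.23 ± 0.16 and the clotting factor VWF 0.74 ± 0.61. T and NK cell genes had no shared direction, with 12 of 23 higher and a median of 0.0094. CD3D, a chain of the T cell receptor complex, had the smallest p among them, at −6.03, −6.08 and −6.49 against −6.87, −6.76 and −6.43 (0.48 ± 0.20), with overlap and close to the floor. Granulocyte and mast cell genes were higher for 6 of 12 (median −0.066) and B and plasma cell genes for 5 of 8 (median 0.039).

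Immediate early genes, which growth factors and stress switch on within minutes, were higher in summer for all 21 tested genes, with a median change of 0.56. None of the 21 had an unadjusted p under 0.05 and none parted the seasons without overlap. The list score was −0.92, 0.85 and 1.34 in summer and −0.73, −0.75 and 0.22 in autumn, so summer array 1 was the lowest of the 6. Arrays of the same number differed by −0.18, 1.60 and 1.12. Without summer replicate 1 the median was 1.15 and without summer replicate 3 it was 0.30. FOS, a subunit of the AP-1 transcription factor, was at −2.91, 1.70 and 2.52 in summer and −3.14, −3.80 and 1.10 in autumn (2.39 ± 1.57). Its values fell into 3 high arrays, of which 1 was from autumn, and 3 low ones, of which 1 was from summer.

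Other members of that list had a similar order of arrays. CCN1, a matricellular signalling gene, was at −1.13, 2.39 and 2.76 in summer and −1.26, −1.46 and 0.21 in autumn (2.18 ± 1.16). DUSP1, a phosphatase that ends MAP kinase signalling, was at 0.90, 2.40 and 3.28 against 0.91, 0.55 and 1.65 (1.15 ± 0.57). IER2 had a change of 0.98 ± 0.54, NR4A1 1.34 ± 0.83, ATF3 1.79 ± 1.21, FOSB 1.39 ± 1.62 and MAFF 0.46 ± 0.24. The neutrophil attractants CXCL3 (1.15 ± 0.59) and CXCL8 (1.28 ± 0.83) were also lowest on summer array 1 among the summer arrays and highest on summer array 3. The difference between horns was 0.013 ± 0.81 for DUSP1 and 0.38 ± 1.63 for CCN1, or 0.26 ± 0.86 and 1.02 ± 1.71 without the dim CL-side array.

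Genes of ciliated epithelial cells were higher in summer for 18 of 19, with a median of 0.52 and no gene parted without overlap. Their score was 0.30, 0.12 and 0.39 in summer and −1.06, −0.48 and 0.73 in autumn. The 3 summer arrays were close together, while autumn held both the lowest arrays and the highest array. The median was 0.14 without autumn replicate 1 and 1.12 without autumn replicate 3. ROPN1L, a protein of cilia and sperm tails, was at −0.28, −0.58 and −0.17 in summer and −2.90, −1.21 and 0.066 in autumn (1.0 ± 0.73). TEKT1 (0.90 ± 0.62) and TEKT2 (0.76 ± 0.54), which encode tektins of the ciliary microtubules, and TPPP3 (0.46 ± 0.27) overlapped in the same way.

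**Figure D4:**
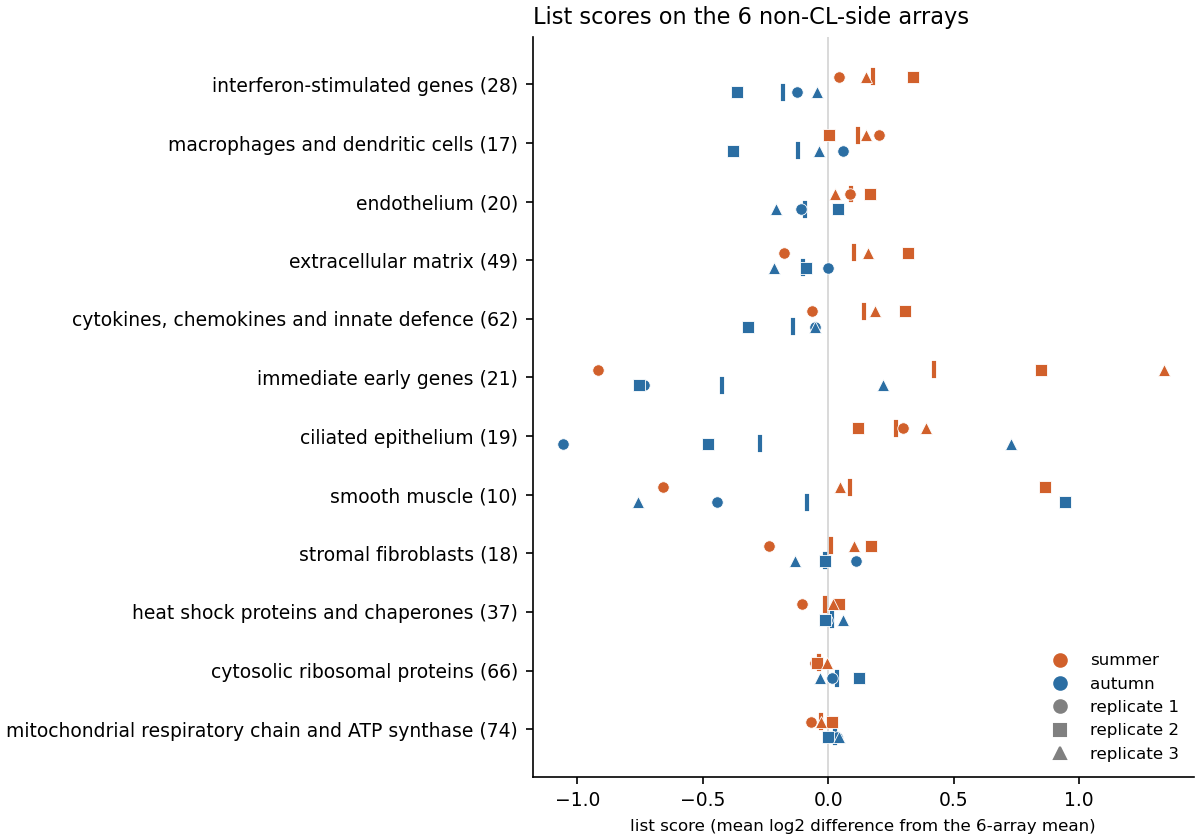
List scores (log2 distance from the mean of the 6 arrays, averaged over the tested genes) on each non-CL-side array for 12 lists, with the number of genes in brackets, summer in orange, autumn in blue, marker shape for the replicate number and bars for the means of 3. The seasons did not overlap for interferon-stimulated genes, while immediate early, ciliated and smooth muscle genes ranged from −1.06 to 1.34 within seasons.

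Among structural cells, stromal fibroblast and epithelial genes had little or no shared direction. Stromal fibroblast genes were higher for 9 of 18 (median 0.0010) and epithelial genes for 10 of 25 (median −0.042). Their medians in the CL-side horn were −0.74 and 0.61, or −0.67 and 0.46 without the dim array. Extracellular matrix genes were higher in summer for 39 of 49, with a median of 0.20. Of the 49, 1 had an unadjusted p under 0.05 and 3 parted the seasons without overlap, a share of 6.12% beside 2.55% over all genes. The matrix score overlapped, at −0.17, 0.32 and 0.16 in summer and −0.0010, −0.087 and −0.21 in autumn, and the median was 0.067 without summer replicate 2. THBS1, an inhibitor of vessel growth that activates latent TGF-beta, was at 1.59, 2.20 and 2.15 in summer and 0.82, 1.42 and 1.10 in autumn. All summer arrays of THBS1 lay above autumn, with a change of 0.86 ± 0.37 against 0.24 ± 0.37 in the CL-side horn (0.054 ± 0.40 without the dim array). The matrilin gene MATN2 had 0.53 ± 0.37 and the tenascin gene TNXB 0.40 ± 0.29, also without overlap. The versican gene VCAN (0.37 ± 0.24, and 0.75 for a second probe) and the fibrillin gene FBN1 (0.30 ± 0.20) overlapped.

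Cytokines, chemokines and innate defence genes were higher for 47 of 62 (median 0.14), with 1 unadjusted p under 0.05 (1.61%, beside 1.11% of all genes) and 1 gene parted upward (1.61%, beside 2.55%). That gene was CCL11, the eosinophil attractant eotaxin, at −5.73, −4.54 and −5.82 in summer and at the floor of −7.28 on every autumn array. The probe was well above background on all 3 summer arrays and on none in autumn. With autumn at the floor the fitted change was 1.92 ± 0.49 (limma adjusted p = 1), and it was 0.51 in the authors' value table. The change was upward in both, but its size is not reliable. The CL-side horn had a change of 0.49 ± 0.49. CCL2, a monocyte attractant, had 0.66 ± 0.38 and overlapped between seasons.

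Hormone receptors had no shared direction, with 9 of 23 higher in summer and a median of −0.025. The progesterone receptor PGR was at −0.90, −1.17 and −1.21 in summer and −1.03, −0.86 and −0.94 in autumn (−0.15 ± 0.19). The oestrogen receptor ESR1 lay near the floor, between −7.28 and −6.44 (−0.025 ± 0.32). The thyroid hormone receptor gene THRA had −0.29 ± 0.21. OXTR, the oxytocin receptor that starts luteolysis, varied widely, at −5.62, −3.24 and −4.76 in summer and −2.89, −2.78 and −5.69 in autumn (−0.75 ± 1.11). Its lowest and its highest array were both from autumn.

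Prostaglandin genes were higher for 11 of 24 (median −0.0070), and none parted the seasons. PTGS2, the inducible cyclooxygenase, was at 0.70, 1.96 and 2.06 in summer and 1.50, −0.81 and 1.82 in autumn, and its change of 0.73 ± 0.65 was −0.088 without autumn replicate 2. PTGDS, a prostaglandin D synthase, had −0.36 ± 0.21. Uterine secretory and day-15 genes were higher for 26 of 35 (median 0.13), with none parted. SERPINA14, the progesterone-induced uterine milk protein, was at −2.56, −0.79 and −1.25 in summer and −2.50, −2.80 and −0.099 in autumn (0.27 ± 0.89, and −0.23 without autumn replicate 2). It had −2.22 ± 0.89 in the CL-side horn, a difference of 2.49 ± 1.26 (limma adjusted p = 0.999). IGFBP1, a binding protein for insulin-like growth factors, had 0.68 ± 0.61, the sodium-glucose transporter gene SLC5A1 0.91 ± 0.70 and the metalloproteinase inhibitor gene TIMP2 0.34 ± 0.27. The homeobox gene MSX1 had −0.44 ± 0.22 with autumn replicate 1 left out by an outlier flag, against 0.40 ± 0.28 in the CL-side horn. IGF2, a growth factor, had −0.57 ± 0.42.

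Heat shock proteins and chaperones were, by count, lower in summer: 25 of 37 had a lower mean, with a median of −0.033. None had an unadjusted p under 0.05, and on 7 of the 37 (18.9%) every summer array lay below every autumn array, against 3.47% of all genes. On 0 of the 37 did summer lie above. The list score overlapped, at −0.11, 0.044 and 0.020 in summer and −0.0050, −0.012 and 0.059 in autumn. Arrays of the same number differed by −0.10, 0.053 and −0.054, so that the list as a whole had no shared direction across numbers. The members that parted were cochaperones of HSP90, HSP70 system genes, a chaperonin subunit and the mitochondrial HSPE1. HSPA8, the constitutive HSC70, was at 4.69, 4.74 and 4.79 in summer and 5.04, 4.84 and 4.95 in autumn (−0.20 ± 0.14). STIP1, which links HSP70 to HSP90, was at 1.04, 1.04 and 1.10 against 1.19, 1.18 and 1.25 (−0.15 ± 0.14). Both genes parted the seasons without overlap. The HSP90 cochaperone genes FKBP4 and AHSA1 had −0.44 ± 0.22 and −0.17 ± 0.12, CCT7 had −0.15 ± 0.12 and DNAJA1 −0.12 ± 0.13.

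The small heat shock gene HSPB8 had the smallest p of the list, at 1.98 and 2.17 on summer arrays 1 and 3 and 1.29 on autumn array 1 (0.79 ± 0.29). Its other 3 arrays were left out by outlier flags, so it was not counted as parted, and with the flagged spots kept the change was −0.26. HSPA1A, HSP90AA1, HSPB1 and DNAJB1 were measured on all 6 arrays and overlapped between seasons. HSPA1A, the inducible HSP70, was at −1.91, −0.79 and −0.68 in summer and −0.73, −0.64 and −0.79 in autumn (−0.40 ± 0.32), with summer array 1 apart from the other 5. HSP90AA1 differed by −0.029 ± 0.15, HSPB1 by −0.016 ± 0.23 and DNAJB1 by 0.34 ± 0.22, and the signs of HSP90AA1 and HSPB1 turned as single arrays were left out. The 37 genes had a median of 0.020 in the CL-side horn, and −0.056 without its dim array. Genes of the unfolded protein response were higher for 12 of 21 (median 0.078), including TRIB3 (0.99 ± 0.59) and the chaperone CANX (0.60 ± 0.35). The median was −0.016 without autumn replicate 2 and −0.015 with slide as a block, TRIB3 had 0.23 without summer replicate 2 and CANX 0.18 without autumn replicate 1. Antioxidant genes were higher for 17 of 36 (median −0.011), with the haem oxygenase gene HMOX1 at 0.57 ± 0.32. Of 8 clock genes 5 were higher (median 0.060), with PER2 at 0.22 ± 0.21.

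Genes of protein synthesis and respiration had slightly lower means in summer, within the error of most single genes. Ribosomal protein genes were lower for 49 of 66, with a median of −0.081 (1.06-fold). Of the 66, 2 (3.03%) had an unadjusted p under 0.05, beside 1.11% of all genes, and 10 (15.2%) lay below autumn on every summer array, beside 3.47%. RPL12, of the large subunit, was at 4.96, 4.73 and 4.70 in summer and 5.51, 5.16 and 5.04 in autumn (−0.44 ± 0.17). RPS15 was at 4.71, 4.84 and 4.76 against 5.28, 5.17 and 4.94 (−0.36 ± 0.16), and RPS19 had −0.32 ± 0.15. The 3 genes parted by season, while the score of all 66 overlapped, at −0.053, −0.045 and −0.0056 in summer and 0.015, 0.12 and −0.034 in autumn. With slide as a block the median was 0.014. Genes of the respiratory chain and ATP synthase were lower for 52 of 74 (median −0.053), with 8 (10.8%) below autumn on every summer array beside 3.47% of all genes. An unadjusted p under 0.05 was reached by 1 of the 74 (1.35%, beside 1.11%). The score of all 74 overlapped too, at −0.069, 0.016 and −0.027 in summer and 0.035, 0.0004 and 0.045 in autumn. NDUFV2, a subunit of complex I, was at 2.08, 2.22 and 2.23 in summer and 2.93, 2.74 and 2.38 in autumn (−0.50 ± 0.20). Cell division genes were lower for 28 of 38 (median −0.054), with a median of −0.57 in the CL-side horn, and −0.36 without its dim array.

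Of single genes higher in summer, BAX, a pore-forming protein of apoptosis, was at −1.51, −1.79 and −1.60 in summer and −2.17, −2.45 and −2.34 in autumn. The seasons did not overlap, arrays of the same number differed by 0.65, 0.65 and 0.74, and the change was 0.68 ± 0.20. The CL-side horn had 0.73 ± 0.20. TMCC3, a membrane protein gene of the endoplasmic reticulum, had 0.63 ± 0.21, and autumn array 1 was its lowest. RABIF, a chaperone of Rab GTPases, was at −3.54, −3.43 and −3.45 against −3.96, −4.11 and −3.74 (0.47 ± 0.18). GPR183, an oxysterol receptor of immune cells, had 0.49 ± 0.19 and no overlap. GYG1, which primes glycogen synthesis, was at −5.54, −5.43 and −5.67 in summer and −5.97, −6.37 and −6.08 in autumn. Its change was 0.59 ± 0.23 and −0.48 ± 0.23 in the CL-side horn, a difference of 1.08 ± 0.32 (limma adjusted p = 0.999), and 0.14 in the authors' value table.

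Larger changes without overlap among genes measured on all 6 arrays had wider errors, which also hold the spread of the CL-side arrays. PTX3, a secreted pentraxin of innate defence, was at −1.13, −0.56 and −0.72 against −2.35, −1.79 and −1.30 (1.01 ± 0.85). Its seasons parted by less than 1 on the log2 scale, and its SDs in this horn were 0.29 in summer and 0.53 in autumn. The drug efflux pump ABCB1 had 1.20 ± 0.59, with 0.25 for its other probe, and FJX1 1.02 ± 0.41. In the CL-side horn PTX3 had −0.90 ± 0.85, and the difference between horns was 1.91 ± 1.21. Without the dim array these were 0.35 ± 0.43 and 0.66 ± 0.57.

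Of genes lower in summer, GMPS, which makes GMP in purine synthesis, was at −1.17, −1.15 and −1.24 in summer and −0.41, −0.42 and −0.81 in autumn. The summer arrays were within 0.1 of each other and below every autumn array, with a change of −0.64 ± 0.16 and −0.54 ± 0.16 in the CL-side horn. UBE2E3, a ubiquitin-conjugating enzyme, was at −5.62, −5.55 and −5.70 against −4.94, −4.61 and −5.20 (−0.71 ± 0.22). AP1S1, a subunit of clathrin adaptors, was at −4.51, −4.83 and −4.81 against −3.70, −4.05 and −4.10, with arrays of the same number apart by −0.81, −0.78 and −0.70 (−0.77 ± 0.30). ATP6V1F, of the vacuolar proton pump, had −0.41 ± 0.15, CZIB, a zinc-binding protein gene, −0.37 ± 0.13 and RP2, a regulator of small GTPases, −0.46 ± 0.17.

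**Figure D5:**
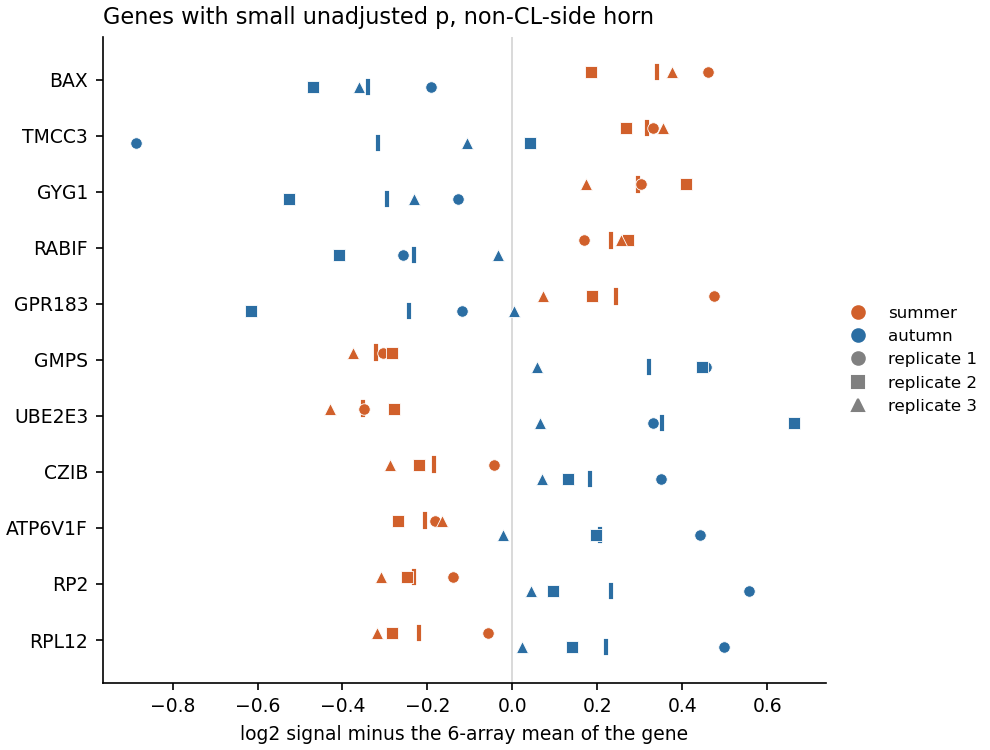
Log2 signal of 11 genes on each non-CL-side array minus the gene's mean of the 6 arrays, 5 higher and 6 lower in summer, with summer in orange, autumn in blue, marker shape for the replicate number and bars for the means of 3. Summer and autumn did not overlap for any of the 11, and BAX and GMPS had changes of 0.68 and −0.64.

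Several of the lower genes lay near the floor. DCAF16, a substrate receptor of a ubiquitin ligase, had the smallest p of all genes, at −7.28, −7.04 and −6.94 in summer and −6.47, −5.63 and −5.69 in autumn (−1.16 ± 0.22). It was well above background on 1 of 3 summer arrays, and the change was −0.28 in the authors' value table. CDC45, a replication helicase factor, was at −7.28, −7.28 and −7.04 against −6.31, −5.29 and −6.77 (−1.07 ± 0.34, and −0.27 in the authors' table). TGFBR1, a TGF-beta receptor, was at −7.28, −7.28 and −7.17 against −5.26, −6.51 and −6.89 (−1.02 ± 0.42). Their summer values sit at or close to the lowest value possible, so the sizes are uncertain. HNRNPK had −0.51 ± 0.18 and was above background on 2 of 3 summer arrays. ARG2, the mitochondrial arginase, had −0.62 ± 0.23, against 0.21 ± 0.23 in the CL-side horn (0.072 ± 0.25 without the dim array). The larger changes without overlap were COCH, ACTR2 (−0.98 ± 0.68) and the stress peptide gene CRH (−0.82 ± 0.48). COCH, an extracellular protein gene, was at −1.42, −2.36 and −1.90 in summer and 0.20, −1.42 and −0.36 in autumn (−1.37 ± 1.31). Its seasons all but touched at −1.42, and its SDs in this horn were 0.47 in summer and 0.82 in autumn.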

How the data were processed

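RNA of 12 endometrium samples was measured on 1-colour Agilent arrays, with 400 ng of total RNA per sample amplified and labelled, per the labels' protocols. Per the submitters' processing notes images were read with Agilent Feature Extraction 9.5. The processed signal is an intensity on a linear scale, background-subtracted and without scaling between arrays, per the file headers; 802 to 1072 signals per non-CL-side array were at or below 0. Mean spot and background intensities, as deposited, entered 1 alternative. A table of log2 values from the authors served as another alternative. Its columns correlated at 0.983 to 0.989 with the scanner values and ran the same way, with medians of −2.79 to −2.61, a 75th percentile near 0 and no centring per probe; its treatment of low signals is unknown.

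Processed signals were divided by the array's 75th percentile over non-control probes and set to a floor of −7.28 on the log2 scale. No spots were averaged, since each non-control probe was on the array once. In all, 466 outlier-flagged values were left out. Of 15208 probes, the 12404 well above background throughout at least 1 group were kept. All 12 arrays were fitted in 1 model of 4 group means with limma 3.58.1 in R 4.3.3 (8 residual degrees of freedom, two-sided tests, Benjamini-Hochberg adjustment over all kept probes, threshold 0.05). Probes were named from symbols, accessions and gene IDs in the files and a RefSeq gene table: 7114 have a symbol, 964 a locus name only and 7130 none, and a gene is read from its brightest probe. Named genes were the 10 with the smallest p per direction, the 6 largest changes per direction without overlap, up to 4 per list with the smallest p, and PGR, ESR1, OXTR, PTGS2 and SERPINA14; other genes were chosen after their values were seen. Some genes and sequences are not reported here. The members and lists were chosen with earlier results of these data known. The fit was tested on simulated data.

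The replicate numbers come from the titles, which do not say what a number shares. Deviations from the group means correlated at 0.304, 0.161 and 0.345 between same-numbered summer and autumn arrays of this horn. On the data alone, the numbers were therefore taken to pair the samples in the alternatives with a replicate block. The main fit has no such block, so the SEs and p-values given for genes are unpaired and hold the spread between numbers. Slide, read from the files, was tested as a block.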

Additional observations from a re-analysis of the deposited data

How the results depend on the processing

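The number of probes past the threshold was 0 under every alternative but the first slide alone, where it was 1. The 139 probes with an unadjusted p under 0.05 became 90 in the authors' value table, 230 with no filter on dim probes, 254 with the 6 arrays alone, 285 without the dim CL-side summer array 2, 563 with slide as a block and 498 on the first slide. With the replicate block there were 244, or 402 with the 6 arrays alone, an alternative chosen after seeing the data. No probe passed the adjusted threshold with that block. Leaving out 1 array gave 56 (without summer replicate 2) to 368 (without autumn replicate 3). The 233 probes of the difference between horns became 120 with normexp background, 97 in the authors' table, 367 with the replicate block fixed and 512 with it random, and 123 to 283 with 1 array left out.

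Of 100 genes 91 kept their direction under every alternative. With 1 array left out the change ran from −0.26 to 0.14 for LGALS3BP, −0.42 to 0.30 for UBA7, −0.26 to 0.17 for ESR1, −0.088 to 1.22 for PTGS2, −0.23 to 1.12 for SERPINA14, −0.11 to 0.040 for HSP90AA1 and −0.17 to 0.11 for HSPB1. With slide as a block UBA7 had 0.30, ESR1 0.12 and SERPINA14 −0.17. HSPB8 had −0.26 both in the authors' table and with outlier-flagged spots kept. The CL-side values without its dim array were an alternative added after seeing the data. On the first slide UBA7 had 0.19 and HMOX1 −0.0059. The cause was not tested. Of 35 lists, 22 had a median that moved by less than 1 SD of the list score under every alternative.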
